A study of Mus musculus with 2 samples.

Results

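Kdm1a, Trim28, Ehmt2 and Setdb1 encode chromatin proteins that keep the endogenous retrovirus MuERV-L silent in mouse embryonic stem (ES) cells. The 4 genes were picked by name and measured over fixed spans of the mouse build mm9, and they are 4 of 4362 coding genes that could be located in the data. RNA was sequenced from 2 populations of sorted ES cells, with 1 library each: cells in which the MuERV-L-driven reporter 2C::tomato was active (2C::tomato+, the positive library) and cells in which it was not (2C::tomato-, the negative library). Both populations are of a mixed strain background, carry Kdm1a FL/FL alleles (loxP sites around part of the gene) and a CreERT transgene, and were kept on gelatin in ES-KOSR medium with 150 µg/ml hygromycin. The labels mention no induction of Cre and do not say which exon of Kdm1a the loxP sites flank. Each population is 1 library, so differences between them cannot be set against a spread of replicates. No p-values are reported, and all intervals are 95% intervals for counting error alone.

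MuERV-L and the genes that use its promoter are active in 2-cell embryos and are then shut off, and a small share of ES cells switches them on again for a time. KDM1A (LSD1) is a demethylase that removes methyl groups from H3K4 as part of the CoREST complex with histone deacetylases. TRIM28 (KAP1) is a scaffold that is brought to retroviral sequence by KRAB zinc finger proteins and recruits SETDB1, which trimethylates H3K9. EHMT2 (G9a) works with its partner EHMT1 (GLP) to mono- and dimethylate H3K9.

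The positive library held 37059813 alignments and the negative library 33833215, all 72 bases long and without gaps. Reads across splice junctions are therefore not in the data, and an exon shorter than 72 bases cannot hold an alignment. The level of an exon or a gene is given as alignments per 1000 available start positions (the places in its exons where a 72-base alignment can begin) per 1000000 alignments of the library, and a ratio is always positive over negative, each scaled to its library's total. The gene labels were checked by sliding the exon pattern of 1 annotated transcript per gene along the whole chromosome. The pattern of Trim28 met 28 of its 28 exon edges within 3 bases, that of Kdm1a 34 of 36, that of Ehmt2 45 of 50 and that of Setdb1 35 of 38. Each best place lay in the expected span, and the next best place on the chromosome met 6 to 8 edges.

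Some exons show best what these data can and cannot see, and their sequences are given here from the GENCODE transcripts, 5′ to 3′. Capitals mark the bases that every ungapped 72-base alignment inside the exon must cover, so a long run of capitals means few possible alignments. Kdm1a exon 12 (chr4:136114411-136114484 of mm9, minus strand, coding) is the shortest exon of its gene and offers 3 start positions. Kdm1a exon 4 (chr4:136129938-136130016) offers 8 and exon 6 (chr4:136128131-136128237) offers 36. Ehmt2 exon 7 (chr17:35042074-35042211, plus strand, coding) is largely a run of GAG and GAA codons, and Ehmt2 exon 9 (chr17:35042555-35042656) is present in 2 of the 4 annotated coding transcripts. Setdb1 exon 10 (chr3:95145261-95145390, minus strand, coding) had the highest ratio among its gene's exons.
Kdm1a exon 4: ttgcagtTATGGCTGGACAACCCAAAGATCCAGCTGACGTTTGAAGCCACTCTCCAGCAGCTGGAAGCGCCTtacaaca
Kdm1a exon 6: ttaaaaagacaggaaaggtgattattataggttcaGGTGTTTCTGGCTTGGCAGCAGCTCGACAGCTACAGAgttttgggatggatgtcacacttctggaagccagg
Kdm1a exon 12: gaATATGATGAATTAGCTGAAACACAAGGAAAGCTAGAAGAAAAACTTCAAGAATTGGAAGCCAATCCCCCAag
Ehmt2 exon 7: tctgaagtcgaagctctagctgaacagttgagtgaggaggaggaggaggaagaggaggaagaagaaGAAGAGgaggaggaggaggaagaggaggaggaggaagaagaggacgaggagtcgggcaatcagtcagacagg
Ehmt2 exon 9: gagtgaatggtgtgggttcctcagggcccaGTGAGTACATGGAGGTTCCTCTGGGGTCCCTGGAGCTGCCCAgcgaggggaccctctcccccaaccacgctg
Setdb1 exon 10: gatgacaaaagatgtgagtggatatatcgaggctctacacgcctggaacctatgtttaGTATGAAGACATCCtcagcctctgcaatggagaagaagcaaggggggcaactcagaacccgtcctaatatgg

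The transcripts of all 4 repressors were present at nearly the same level in cells with and without an active reporter. Over its span, chr4:136106000-136159000, Kdm1a had 3463 read equivalents (summed depth divided by the 72-base length) from positive cells and 3529 from negative cells. That is 93.4 and 104 per 1000000, a ratio of 0.896 (0.855 to 0.939). Ehmt2, over chr17:35035000-35051500, had 5516 and 5547 read equivalents, or 149 and 164 per 1000000, a ratio of 0.908 (0.874 to 0.942). Trim28, over chr7:13609000-13617000, had 48684 and 43870, or 1314 and 1297 per 1000000, a ratio of 1.01 (1.0001 to 1.03). Setdb1, over chr3:95127000-95161500, had 3912 and 3468, or 106 and 103 per 1000000, a ratio of 1.03 (0.984 to 1.08). Kdm1a and Ehmt2 were thus slightly lower in the positive library, while Trim28 and Setdb1 were nearly equal. Values for a pair of libraries are given here and below with the positive library first. The Trim28 value moved to 0.989 when the libraries were scaled by the median window ratio, so the side of 1 on which it lies depends on the scaling.

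Counting only alignments wholly inside the exons of each gene gave much the same ratios. They were 0.903 (0.858 to 0.951) for Kdm1a, 0.900 (0.864 to 0.938) for Ehmt2, 1.02 (1.004 to 1.03) for Trim28 and 1.05 (0.996 to 1.10) for Setdb1. These alignments were 83.5% of those in the Kdm1a span, 83.7% for Ehmt2, 92.0% for Trim28 and 82.8% for Setdb1. Differences of this size were common. No member reached 2-fold, a size that 0.0459% of the 4362 located genes reached, and none was at least 25% higher or 20% lower, against 7.29%. The interval left out 1 for 3 of the 4 members and for 43.4% of the located genes. The median ratio was 0.976 over the located genes, with 5% of them below 0.813 and 5% above 1.21. Among the located genes 78.2% had a higher ratio than Kdm1a, 79.2% than Ehmt2, 35.1% than Trim28 and 25.4% than Setdb1. By contrast, the 10 kb window with the highest ratio among those with at least 1000 alignments, chr10:103630001-103640000, had 2893 and 5 alignments. Its ratio was 528 (226 to 1628), counted over the whole window rather than over exons. Of all 10 kb windows with at least 20 alignments, 5.44% were past 2-fold, and of those with at least 200 alignments 0.849%.

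**Figure D1:**
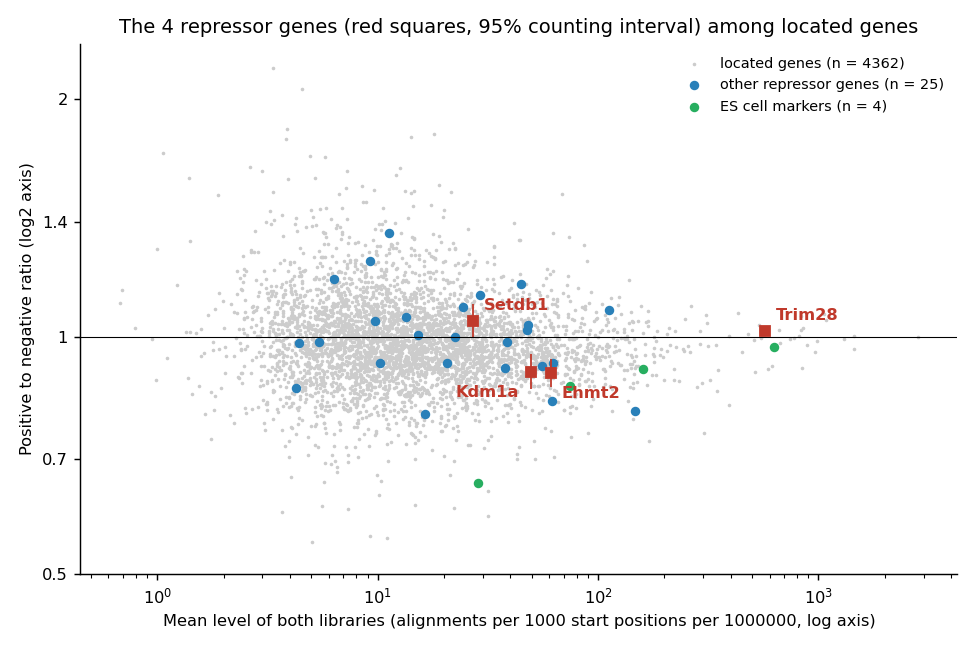
Each point is a gene located in the tracks, with its mean level in both libraries (log axis) against its positive to negative ratio (log2 axis). Red squares are the 4 repressors with 95% counting intervals, light blue points other repressor genes and green points ES cell markers. The 4 squares lie between 0.900 and 1.05, inside the cloud of located genes, and Trim28 lies far to the right.

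The repressors differed widely from each other in level, in the same order in both libraries. Trim28 was the most abundant, at 577 (572 to 583) in the positive library and 567 (562 to 573) in the negative library, and ranked 22 of the 4362 located genes by mean level. Ehmt2 followed at 57.9 (56.3 to 59.6) and 64.4 (62.5 to 66.2), rank 375. Kdm1a was at 47.2 (45.5 to 48.9) and 52.3 (50.4 to 54.2), rank 512. Setdb1, the methyltransferase recruited by TRIM28, was the lowest at 27.7 (26.8 to 28.7) and 26.4 (25.5 to 27.4), rank 1099. The median located gene was at 13.3 and 13.5. No neighbours in this order had overlapping counting intervals within a library.

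No exon of Kdm1a was lost from either library. All 19 exons are at least 72 bases long, and all 19 held alignments in both populations. Exon 6 had 41 and 40 alignments, a ratio of 0.936 (0.590 to 1.48), at levels of 30.7 and 32.8, against 47.2 and 52.3 for the gene. Exon 5 had 44 and 43, a ratio of 0.934 (0.599 to 1.46). The fewest alignments lay in exon 12, the 74-base exon printed above, with 1 and 1 at its 3 start positions. Exon 4 had 9 and 9, and exon 10 had 15 and 10. For exons 4 and 12 the depth cannot show a difference between the populations, and a loss of part of the transcripts could not be detected there. The intervals of exons 5, 6 and 10 are also wide, so a partial loss in 1 library could be missed there too. A loss shared by both libraries would not change a ratio.

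Among the 17 Kdm1a exons with at least 20 alignments, ratios ran from 0.579 to 1.37. Exon 7 was the lowest, with 33 and 52 alignments, a ratio of 0.579 (0.363 to 0.913). Exon 10 was the highest, at 1.37 (0.576 to 3.41), and its wide interval includes 1. By the relative ratio, which is the ratio of an exon divided by that of all other exons of its gene, exon 7 was at 0.637 (0.411 to 0.989), exon 18 at 0.822 (0.677 to 0.997) and exon 16 at 1.48 (1.08 to 2.03), and the other 14 intervals included 1. The long exons at the ends of the gene were close to the gene as a whole: exon 1 had 596 and 573 alignments, a ratio of 0.950 (0.845 to 1.07), and exon 19 had 798 and 798, a ratio of 0.913 (0.827 to 1.01). The difference in Kdm1a was spread over the transcript: exons centred on the 5′ side of its midpoint had a ratio of 0.898 (0.828 to 0.975), and those on the 3′ side 0.907 (0.848 to 0.970). Alignments wholly inside its introns numbered 193 and 226, a ratio of 0.780 (0.640 to 0.949), at 0.230% and 0.267% of the exon density, below the medians of 0.537% and 0.478% over 4200 genes, whose median intron ratio was 1.08. Of these alignments 78 and 99 lay in a single block of intron 1 that is described below. Without that block 115 and 127 remained, the ratio was 0.827 (0.637 to 1.07), and the densities were 0.137% and 0.150%.

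**Figure D2:**
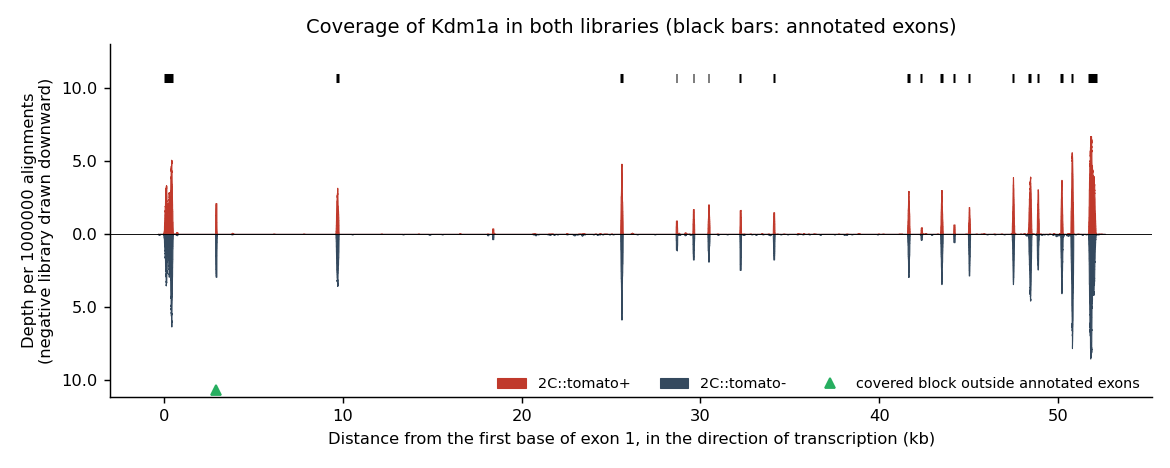
Depth per 1000000 alignments along Kdm1a (vertical axis, positive library in red upward, negative library in dark blue downward) against the distance from the start of exon 1 in kb. Black bars mark the 19 annotated exons, and the green triangle marks a covered block that lies in no annotated exon. Nearly all peaks lie below an exon bar, at similar heights in both libraries.

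Blocks of continuous coverage, found without the annotation, gave a similar picture for the exons they held. An exon-like block was a run of at least 72 bases whose depth in both libraries together reached 10% of the 95th percentile of covered depth in the span. Kdm1a had 18 such blocks, and 17 of them each held 1 exon. Exons 10 and 12 lay in no block, so the blocks cannot show a loss of either. Block ratios ran from 0.644 to 1.26 with a median of 0.894, and no block in one library fell under 10% of its scaled level in the other. The intervals of 4 of the 18 blocks left out 1, and blocks were measured for no gene beyond the 4 members. The remaining block, chr4:136155698-136155782, lies between exons 1 and 2 and overlaps no exon in the annotation. It had 77.8 and 97.2 read equivalents, a ratio of 0.734 (0.538 to 0.999). Its alignments began at only 19 positions, and 61.0% of them at 3 positions. No stretch of the Kdm1a span recurred elsewhere by its pattern of alignment starts.

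The transcript of Trim28 was covered densely enough to compare single exons closely. All 15 of its exons of at least 72 bases held alignments, from 577 and 546 in exon 15 to 10951 and 10070 in exon 1. Exon ratios stayed between 0.955 and 1.19. Exon 7 was slightly higher in the positive library relative to the other exons, with 1664 and 1286 alignments and a relative ratio of 1.17 (1.08 to 1.26). So were exon 8, at 1.18 (1.07 to 1.29), and exon 2, at 1.16 (1.05 to 1.27). Exon 1, at 0.968 (0.938 to 0.999), and exon 17, at 0.960 (0.926 to 0.995), were slightly lower. Exons 7 and 8 also had lower levels than both exon 6 and exon 9 in each library: exon 7 was at 591 and 500 and exon 8 at 645 and 539, against 884 and 926 in exon 6 and 874 and 897 in exon 9. In the exons as a whole 92.8% and 91.5% of the start positions were in use, against 47.0% and 40.6% in Setdb1. Both sides of the Trim28 transcript had nearly the same ratio, 1.02 (1.004 to 1.05) on the 5′ side and 1.01 (0.993 to 1.03) on the 3′ side.

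**Figure D3:**
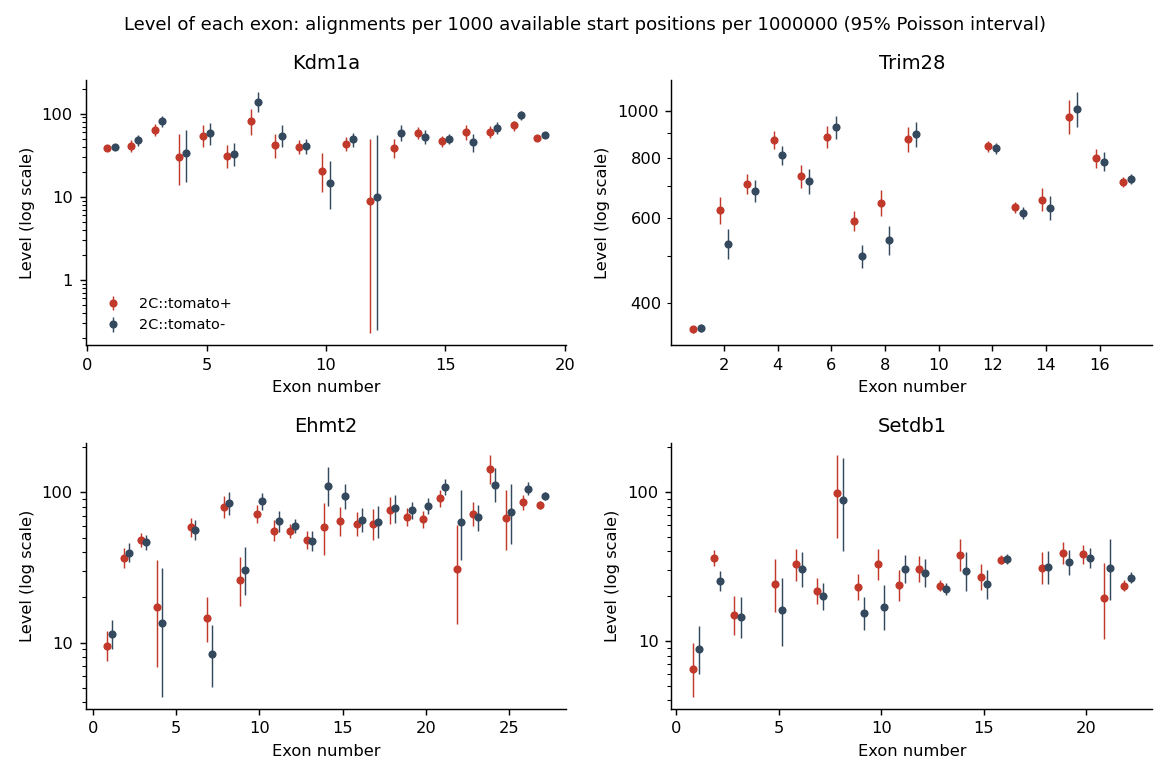
Level of every exon of at least 72 bases (alignments per 1000 available start positions per 1000000, log axes) by exon number, positive library in red and negative library in dark blue, with 95% Poisson intervals. Much of the rise and fall of levels along each gene is shared by both libraries, but not every step. From exon 10 to exon 11 of Setdb1 the level falls from 32.9 to 23.9 in the positive library. In the negative library it rises from 17.0 to 30.7. The Trim28 panel spans a narrower range than the others.

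Ehmt2 had a ratio of 0.868 (0.824 to 0.916) on the 3′ side of its transcript, from 2715 and 2854 alignments, and one of 0.950 (0.890 to 1.01) on the 5′ side, from 1884 and 1810. The 3′ ratio divided by the 5′ ratio was 0.914. Over 4113 located genes with at least 200 alignments on each side this quotient had a median of 0.945 and was below 1 for 68.3%, so a lower 3′ side was the usual case. The last exon, exon 27, had 1048 and 1090 alignments, a ratio of 0.878 (0.806 to 0.956). All 26 Ehmt2 exons of at least 72 bases held alignments in both libraries, the fewest being 7 and 5 in exon 4.

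Some Ehmt2 exons held far fewer alignments for their length than the gene as a whole. Exon 9, which 2 of the 4 annotated coding transcripts lack, had 30 and 32 alignments, at levels of 26.1 and 30.5, against 57.9 and 64.4 for the gene. Its ratio was 0.856 (0.502 to 1.45). Its neighbours were higher, exon 8 at 80.3 and 85.3 and exon 10 at 72.3 and 87.5. Exon 7, the run of GAG and GAA codons printed above, was lower still, at 14.5 and 8.38. From 36 and 19 alignments its relative ratio was 1.93 (1.10 to 3.37), the highest among the exons compared in the 4 genes. It is present in all 4 annotated coding transcripts. The part of its sequence in this low level was not tested. Exon 1 was also low, at 9.55 and 11.4 from 75 and 82 alignments, as was exon 4, at 17.2 and 13.4 from 7 and 5. Of the other exons of Ehmt2, 3 had a relative interval that left out 1. Exon 14, with 26 and 45 alignments, was at 0.584 (0.359 to 0.947), exon 15, with 86 and 115, at 0.754 (0.568 to 0.9998), and exon 24, with 85 and 61, at 1.42 (1.02 to 1.98). Both directions thus occurred within the gene. Alignments in Ehmt2 introns numbered 178 and 170, a ratio of 0.956 (0.770 to 1.19), at 0.900% and 0.848% of the exon density.

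In Setdb1, 3 exons toward the 5′ end were higher and the last exon lower in the positive library than the rest of the gene. Exon 10 had 72 and 34 alignments and a relative ratio of 1.86 (1.24 to 2.81). Exon 9 beside it had 103 and 63, a relative ratio of 1.44 (1.05 to 1.98). Exon 2 had 265 and 171, a relative ratio of 1.38 (1.13 to 1.69), while exon 22, the last, had 519 and 538 and a relative ratio of 0.810 (0.710 to 0.926). The 5′ side of the transcript had a ratio of 1.14 (1.05 to 1.23) and the 3′ side 0.985 (0.922 to 1.05). Their quotient, 0.864, lies within the range of 0.756 to 1.18 that held all but the lowest 5% and highest 5% of located genes. Setdb1 introns held 234 and 206 alignments, a ratio of 1.04 (0.856 to 1.26). Block ratios of Setdb1 ran from 0.456 to 1.92. The lowest block, chr3:95128227-95128317, holds exon 21 and had 19.8 and 40.4 read equivalents, a ratio of 0.456 (0.253 to 0.799). That is past 2-fold. Alignments wholly inside exon 21 numbered 13 and 19, a relative ratio of 0.595 (0.293 to 1.21).

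The first 3 exons of Setdb1 are not unique in the data. Their start patterns recurred in inverted order 70.5 to 75.9 kb away on the same chromosome, so reads from either place were listed at both. Such stretches held 8.42% of the alignments of the span, and without them the Setdb1 ratio was 1.01 (0.967 to 1.06). The values given above for exon 2, for the 5′ side and for the quotient include such stretches. Exon 9 and exon 10 hold no such stretch. The other 3 spans held none. Beyond the last exon, the span also takes in the end of the neighbouring gene Cers2, on the other strand: the block at chr3:95127001-95127418 had 164 and 200 read equivalents, a ratio of 0.749 (0.605 to 0.925). Another block without an exon of the matched transcript, at chr3:95141428-95141514, had 14.5 and 11.5 and lies in an annotated retained intron of Setdb1.

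Over the 4 genes together, 80 of 85 exons are at least 72 bases long, and all 80 held alignments in both libraries. Of the 77 with at least 20 alignments, 9 (11.7%) were at least 25% higher or 20% lower than the rest of their gene with an interval that left out 1, against 9.97% of 47919 exons of located genes. By this relative ratio none of the 77 reached 2-fold, against 2.88%. Intervals left out 1 at any size for 16 of them (20.8%), against 12.4%. Trim28 gave 5 of these 16, and without it the share was 11 of 62 (17.7%). By size Trim28 gave 0 of the 9, and without it the share was 9 of 62 (14.5%). Over all 4 genes the share by size was thus near that of exons at large, but without Trim28 it was higher. By the interval alone it was higher with and without Trim28. Intervals narrow as counts rise, and all 4 genes lie above the median level of located genes. The shares were not matched for depth, so they cannot show whether a higher share is a trait of these genes. None of the 80 exons that could hold an alignment was missing from either library. The other 5 exons, exons 10 and 11 of Trim28, exon 5 of Ehmt2 and exons 4 and 17 of Setdb1, were not measured.

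**Figure D4:**
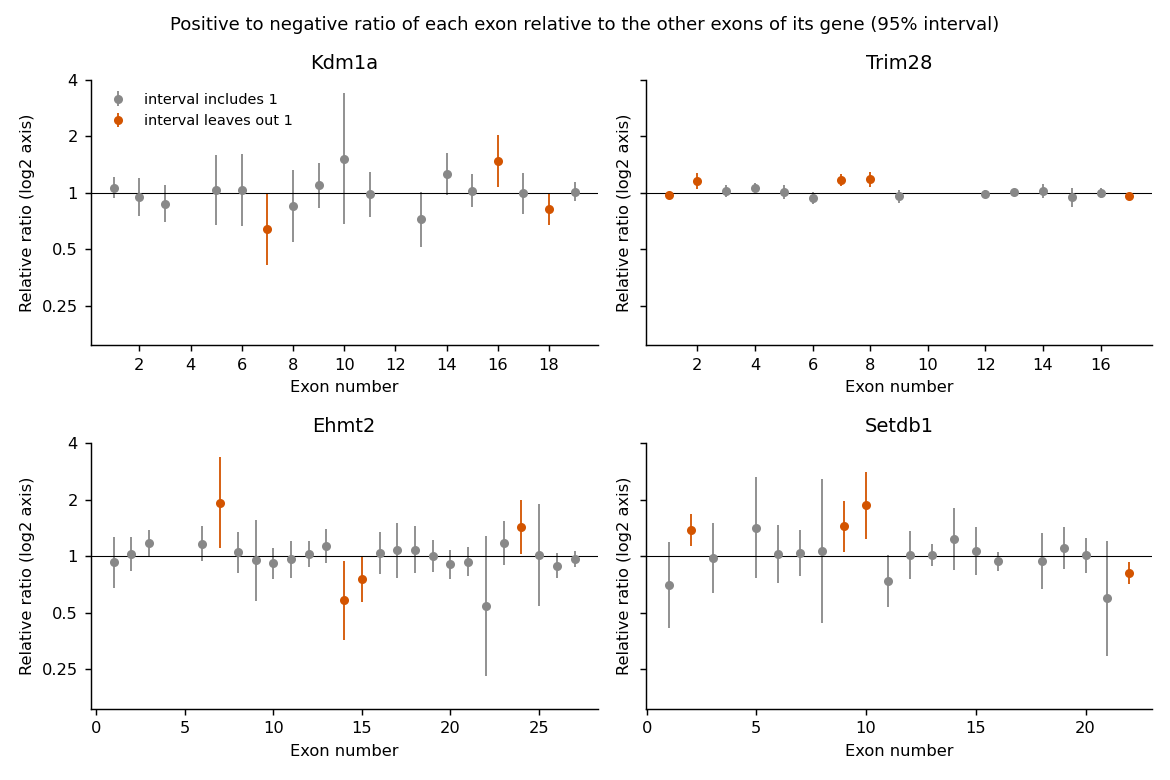
Relative ratio of each exon with at least 20 alignments (log2 axes) by exon number, with 95% intervals from the 4 counts behind it. Orange points are the 16 exons whose interval leaves out 1. They run from 0.584 (Ehmt2 exon 14) to 1.93 (Ehmt2 exon 7).

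The other genes of the same machinery were also close to equal. Of 41 listed genes 25 could be located. None of the 25 reached 2-fold, 1 was at least 25% higher and 1 at least 20% lower, against 3.58% and 3.71% of located genes. The interval lay above 1 for 7 of them, below 1 for 8 and included 1 for 10, against 16.1% of located genes above and 27.3% below. Their median ratio was 0.999. The 16 genes that were not located have no value here.

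Among partners of KDM1A, 4 of 9 were located. The corepressor Rcor2, a CoREST protein, had 3976 and 3956 exon alignments and a ratio of 0.918 (0.878 to 0.959). The histone deacetylases Hdac1 and Hdac2 had ratios of 0.926 (0.874 to 0.981) and 0.914 (0.847 to 0.985). Repeated stretches held 36.1% of the alignments of Hdac1. The ratios of Rcor2, Hdac1 and Hdac2 are all near that of Kdm1a itself, but such values were common. The interval lay below 1 for 27.3% of located genes, whose median ratio was 0.976, so these 3 ratios do not set the complex apart. Gse1 went the other way, from 2869 and 1937 alignments its ratio was 1.35 (1.28 to 1.43), the highest of all 25.

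Among partners of TRIM28, 5 of 8 were located. Atf7ip, a cofactor of SETDB1, was at 1.18 (1.10 to 1.27) from 1792 and 1382 alignments. The lowest were Sumo2, at 0.804 (0.770 to 0.841), and Cbx3, a heterochromatin protein, at 0.829 (0.789 to 0.870). Repeated stretches held 89.8% of the alignments of Sumo2, 88.0% of those of Cbx3 and 36.1% of those of Hdac1, so these values sum reads that are listed at several places.

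Among genes of H3K9 methylation, 3 of 7 were located. Ehmt1, whose protein pairs with EHMT2, had 2068 and 1782 alignments, a ratio of 1.06 (0.994 to 1.13), and its level of 13.8 and 13.0 was below that of Ehmt2. Cdyl was at 0.927 (0.852 to 1.01), and the methyltransferase Suv39h2 at 0.860 (0.766 to 0.966). Of 17 other repressors of retroviruses or of 2-cell genes, 13 were located. The highest were Mga, at 1.247 (1.19 to 1.30), and L3mbtl2, at 1.17 (1.11 to 1.22), both members of a Polycomb complex. The lowest was Rnf2, a ubiquitin ligase of Polycomb complexes, at 0.798 (0.743 to 0.858) from 1419 and 1623 alignments, followed by Zmym2 at 0.982 (0.891 to 1.08).

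**Figure D5:**
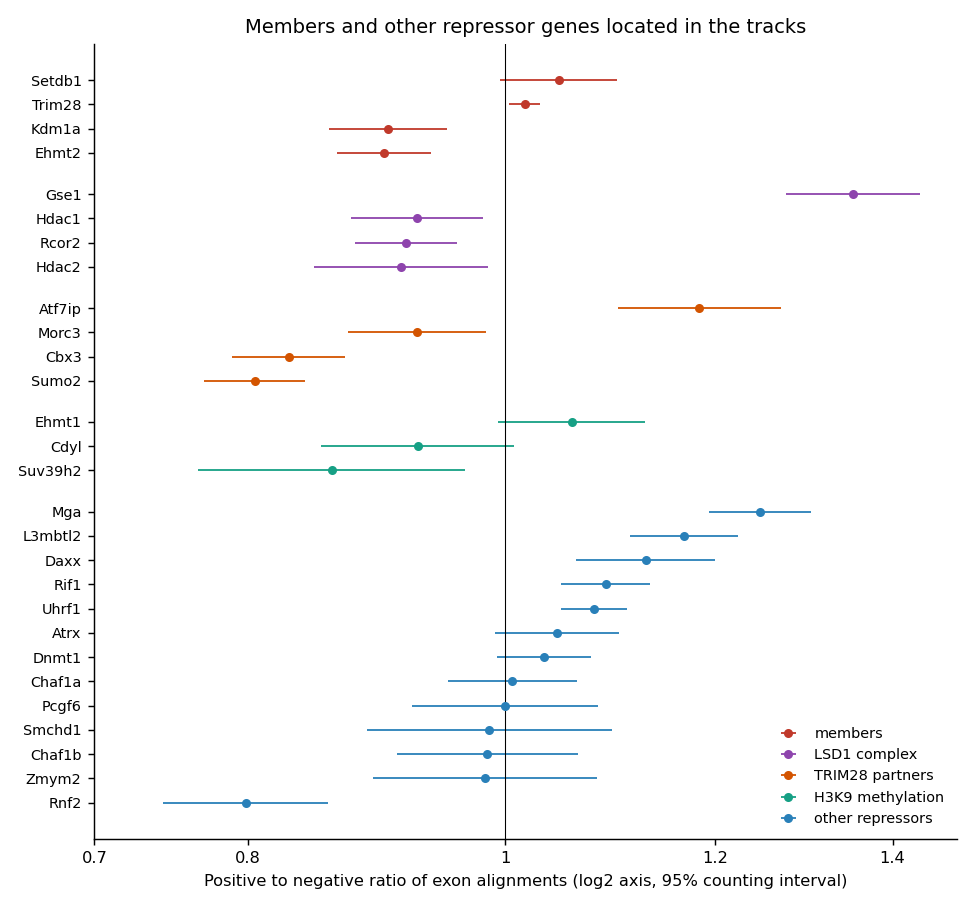
Positive to negative ratio of exon alignments (log2 axis) for the 4 members and other located repressor genes, grouped by list, with 95% counting intervals. The genes drawn lie between 0.798 (Rnf2) and 1.35 (Gse1).

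The cells carried ES cell transcripts in both populations. Of 7 ES cell markers 4 were located: Pou5f1 at levels of 619 and 636, Tdgf1 at 153 and 168, Esrrb at 69.4 and 80.2 and Klf4 at 22.6 and 34.6. Their ratios were 0.972, 0.910, 0.866 and 0.652 in that order, and Klf4 had 2236 and 3130 alignments. The interval lay below 1 for all 4, as it did for 27.3% of located genes, whose median ratio was itself 0.976. Pou5f1 was close to that median, and 0.275% of located genes had a lower ratio than Klf4. Whether a different mix of cells has a part in the ratios of the repressors was not tested, and fewer cells of a type cannot be told apart from less RNA per cell. None of the 13 markers of fibroblasts, primitive endoderm or early germ layers was located, which gives no level for them.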

How the data were processed

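Libraries were made with an Illumina mRNA kit, per the labels. The deposited files are 1 track per library, and per the file headers each was made from a sorted BAM file. The signal in the deposited tracks is the authors' whole number of alignments over each base, not scaled to depth. The submitters' processing notes name Bowtie and mm9. Its settings and version: not given in the sources used here.

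The tracks were decoded into 72-base alignments. Ratios compare shares of each library's total, with exact conditional binomial (Clopper-Pearson) 95% intervals. PCR copies cannot be told from separate molecules, and the intervals do not cover them. Relative ratios have a log-scale interval from 4 counts.

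The annotation at hand, GENCODE M21, is made for another build, so no coordinate was taken from it. The exon spacing of 1 coding transcript per gene (APPRIS principal where tagged, then the longest) was slid along the mm9 chromosome and matched to edges of coverage within 3 bases. A gene counted as located with at least 6 edges matched and at least 2 times as many as at the next best place. An edge was a 4-fold step in depth over 8 bases, with a depth of at least 5, a setting chosen after a first trial on these data. Of 15407 genes tried, 4362 were located. Poorly covered genes and genes with few exons are missed. Strand is not kept. Repeated stretches were 64-base patterns of starts found at 2 or more places.

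The text names all 4 members and, of each list, the 2 highest and 2 lowest ratios among genes with at least 200 exon alignments, besides the located ES cell markers. The value of 1 listed gene is not reported here, though the counts over the lists include it. The exons whose sequences are printed were chosen after their values were seen. The members and lists were chosen with earlier results of these data known. The 2-fold calls over 10 kb windows were tested on simulated counts. The placement of genes was tested with mirrored exon patterns on the real tracks. Python 3.11.15, numpy 2.4.6 and scipy 1.17.1 were used.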

Additional observations from a re-analysis of the deposited data

How the results depend on the processing

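The span ratios of Kdm1a, Ehmt2 and Setdb1 changed little with the processing, while that of Trim28 fell to 0.880 in 1 run. No alternative run put any of the 4 genes 25% higher or 20% lower. Over 7 alternatives each, span ratios ran from 0.875 to 0.922 for Kdm1a, 0.886 to 0.910 for Ehmt2, 0.998 to 1.05 for Setdb1 and 0.880 to 1.02 for Trim28. The count inside annotated exons and the Kdm1a intron count without its unannotated block were added after the data were seen. Trim28 was at 0.989 with median-ratio scaling (a factor of 1.02) and at 0.880 with each start position counted 1 time; 92.8% and 91.5% of its start positions were in use. With positions counted 1 time the median block ratio was 0.868 for Trim28, against 1.01, and 0.960 for Setdb1, against 1.06. This count is scaled by the start positions in use in each whole library, 8326713 and 7193195. Where nearly all positions of a gene are in use in both libraries, as in Trim28, it can hardly follow the level. The cause of the shift in Setdb1 was not tested. Windows of 10 kb past 2-fold numbered 2632 of 48349 (5.44%). With 50 kb windows they numbered 1184 of 22167 (5.34%), with at least 200 alignments 195 of 22959 (0.849%) and with no minimum 5115 of 138430 (3.70%), so the share depends on windows with few alignments. None of the 25 located pathway genes passed 2-fold under any setting run. Depth limits exons under 20 alignments. No paired analysis was possible because there is only 1 library of each kind, and for the same reason no replicate could be left out.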
